A study of Rattus norvegicus with 70 samples.

Results

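The liver comparison set 6 libraries of liver RNA from male Wistar-Kyoto rats exposed to 0.8 ppm ozone for 4 h against 6 libraries from air-exposed male rats of the same strain. It was chosen by tissue and exposure label alone. The liver libraries were 12 of the 68 with a column in the tables used here, and 12573 of 19441 liver genes had a mean value of at least 10 and were tested. The other 6868 genes lay under that minimum. The study took lung, hypothalamus, adrenal gland, liver, adipose tissue and muscle after the same exposures. The labels name no allele, drug or age. They do not state in words that each liver library came from a different rat, so the spread between libraries may in part be technical. Air libraries bear the numbers 1, 2, 6, 7, 9 and 10 and ozone libraries 13, 14, 16, 18, 19 and 20, so that any difference in the order or time of handling that goes with the number cannot be told apart from ozone.

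Ozone is an irritant gas that reacts at the lining of the airways, and its effects on organs farther away are known to involve stress hormones. The liver responds to glucocorticoids and glucagon by breaking down amino acids, disposing of their nitrogen as urea and releasing new glucose. Insulin opposes this, and growth hormone acts on hepatocytes through the transcription factor STAT5, whose targets include inhibitors of growth hormone signalling itself.

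The liver libraries held 12342650 to 16678455 reads. Levels below are the deposited values, read counts divided by a size factor for each library and called normalised read counts. They are not corrected for gene length, so only values of one gene are compared. The label matched its markers, since albumin (Alb) had 927863 to 1429858 (median 1346225) normalised read counts in air and 1146234 to 1584954 (median 1330611) in ozone, and 14 hepatocyte marker genes took 16.0% to 18.5% of the summed values in air and 16.7% to 18.7% in ozone. Mean shares of mitochondrially encoded transcripts were 5.23% ± 0.816 (SD, n = 6) in air and 5.36% ± 0.309 in ozone. None of 5 library measures (mitochondrial share, hepatocyte marker share, share of the 10 most abundant genes, genes detected and total reads) passed the threshold between the exposures, with Benjamini-Hochberg adjusted p = 0.742 for each in an exact two-sided permutation test whose smallest possible p is 0.00216. On the first principal component, which held 30.1% of the variance, air 1 stood at -83.5, apart from air 6 at -32.3 and from all other libraries between -10.9 and 47.6.

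Ozone changed 1440 of the 12573 genes tested, 11.5%, at an adjusted p under 0.05 in limma. With array weights, which give libraries unequal influence, 2302 genes passed. Of the 1440, 847 genes (6.74%) rose and 593 (4.72%) fell, and 270 (2.15%) rose and 189 (1.5%) fell by at least 2-fold. Fold changes are given as log2 of (value + 1), ozone over air, with their standard error. The median standard error was 0.20, and the median log2 fold change of all genes was 0.00. In 600 genes (4.77%) every ozone library lay above every air library, and in 358 genes (2.85%) every ozone library lay below.

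The 2 largest increases among genes with a mean of at least 50 were in genes with few reads in air-exposed liver. Slc12a3, which encodes the sodium-chloride cotransporter best known from the distal kidney tubule, had 2.63 to 9.14 (median 4.17) normalised read counts in air and 138 to 313 (median 256) in ozone. The lowest ozone library was far above air 9, the highest of the air libraries. The log2 fold change was 5.41 ± 0.26 (adjusted p = 5.58e-08). Tpte2, a relative of lipid phosphatases, went from 0.91 to 5.26 (median 2.76) to 105 to 269 (median 165) (log2 fold change 5.65 ± 0.35, adjusted p = 2.30e-07). Tor3a, a torsin ATPase of the endoplasmic reticulum, had 50.7 to 105 (median 82.2) normalised read counts in air and 627 to 895 (median 755) in ozone. Its groups were narrow and did not overlap, and it rose by 3.25 ± 0.17 (adjusted p = 9.87e-08).

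The other genes among the 15 largest increases with a mean of at least 50 were the kinase-family gene Fam69c (4.30), the cell-cycle inhibitor Cdkn1a (3.79), the clock-output gene Noct (3.72), the SOCS-box genes Spsb4 (3.59) and Spsb1 (3.34), carbonic anhydrase Car12 (3.55), the zinc-finger gene Zfp354a (3.22), serine dehydratase Sds (3.01), the magnesium transporter Slc41a3 (2.95), the coactivator Ppargc1a (2.88), the glucocorticoid receptor cochaperone Fkbp5 (2.86) and the aminotransferase Got1 (2.85). The 15 largest decreases ran from -4.21 for Cish to -2.05 for LOC100910979. Among them were the phosphatase 2A subunit Ppp2r2b (-3.50), the ERK phosphatase Dusp6 (-2.88), the arrestin-domain gene Arrdc3 (-2.66), the signalling regulator Rgs3 (-2.43), the activin subunit Inhba (-2.29) and the DNA repair gene Rad51d (-2.13). All 15 of the increases and 13 of the 15 decreases separated the 6 ozone from the 6 air libraries without overlap, which their choice by fold change favours. The exceptions were Onecut1 and the mitochondrial carrier Slc25a30. All 30 passed the threshold in each of the 12 fits that left out 1 library.

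**Figure D1:**
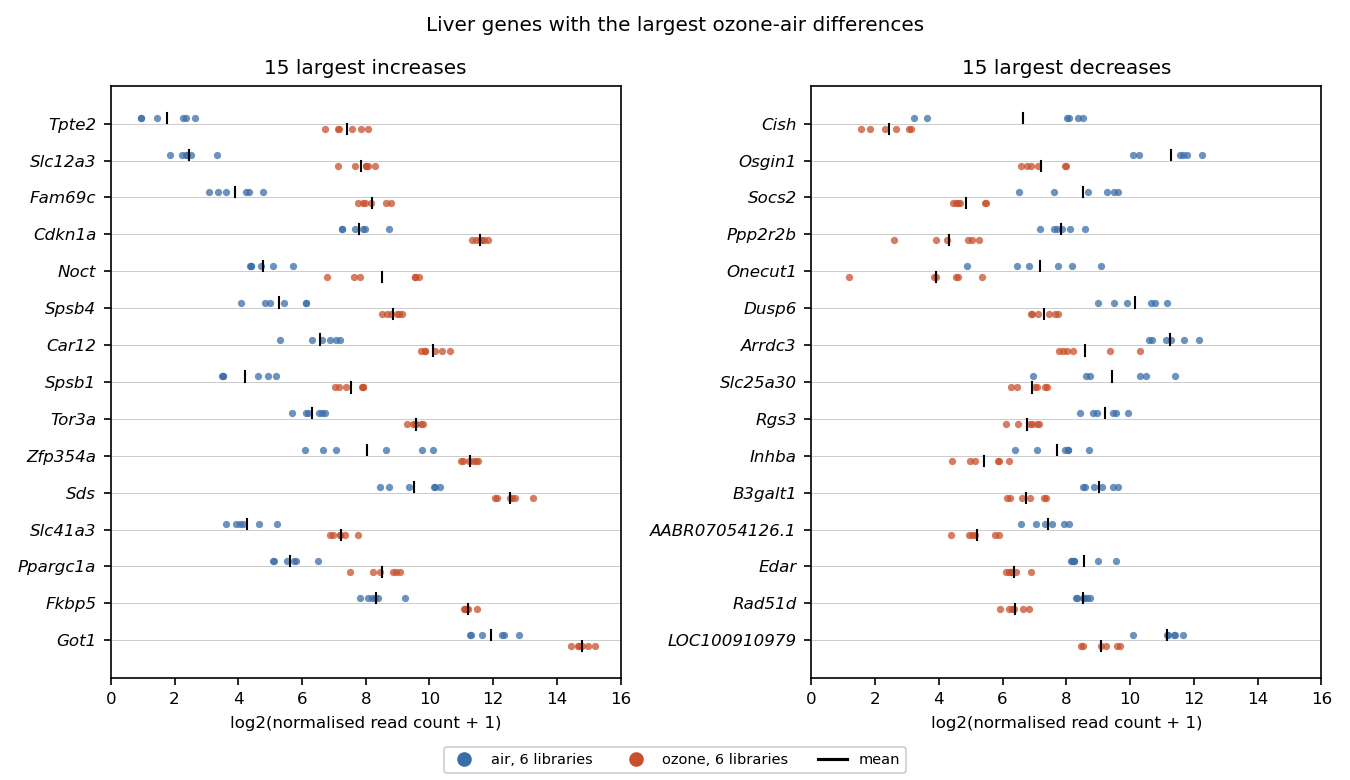
Level of the 15 genes with the largest increase (left) and the 15 with the largest decrease (right) in liver, on a log2(normalised read count + 1) axis; each point is 1 library, blue for the 6 air and red for the 6 ozone libraries, and black bars are means. The ozone points of Slc12a3, Tpte2 and Fam69c lie far above their air points, while the air points of Cish fall into a high set of 4 and a low pair next to the ozone points.

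The lists named below, set with earlier results of these data known, are described by how many tested members rose or fell, to be read against 6.74% of all genes rising and 4.72% falling. Shares ranged widely: 66.7% of the urea cycle list rose, and 45% of the interferon-stimulated list fell. List counts of 5 or fewer moved by up to 3 genes when 1 library was left out. Some genes, such as Cdkn1a, Gadd45b and Lpin1, belong to more than 1 list and are counted in each.

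**Figure D2:**
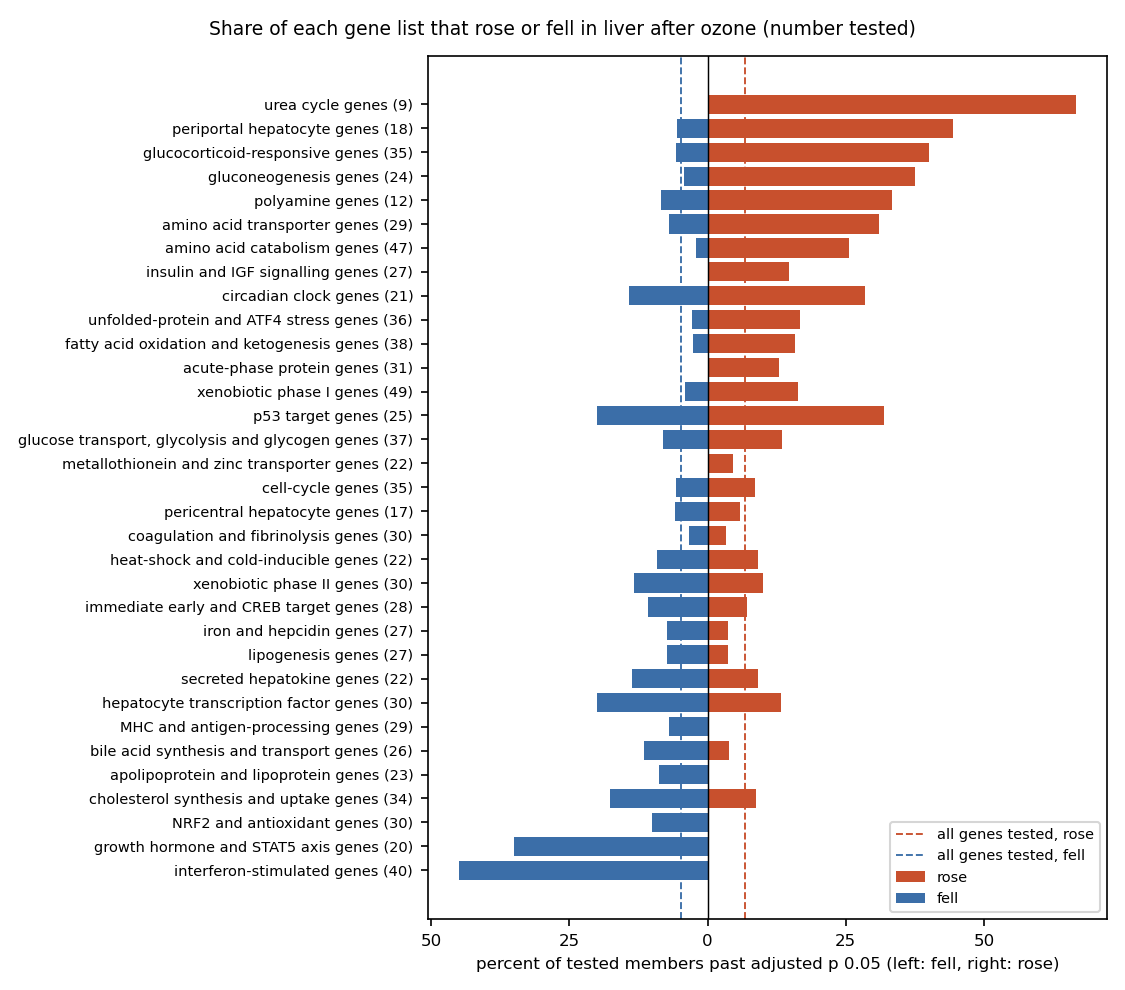
Percent of the tested members of each gene list that fell (blue, to the left) or rose (red, to the right) in liver at an adjusted p under 0.05, with the number tested in parentheses; dashed lines mark the shares of all 12573 genes, 4.72% falling and 6.74% rising. Urea cycle, periportal, glucocorticoid-responsive and gluconeogenesis genes extend to the right, and growth hormone and interferon genes to the left.

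Some genes of the growth hormone and STAT5 axis fell. Of 20 tested members 7 fell, 0 rose and 13 did not pass the threshold, with a median log2 fold change of -0.31. Of the 7, 1 kept its call in only 1 of the 12 fits that left out 1 library, and another in 4. Leaving out 1 library gave 5 to 7 fallers and 0 to 1 risers, and no filter on low values gave 6 fallers. At an unadjusted p under 0.05 in limma 0 members were up and 9 down, and edgeR and DESeq2 each called 0 up and 7 down. Cish, a STAT5 target that encodes an inhibitor of cytokine and growth hormone receptors, had the largest decrease of any liver gene. Its RefSeq promoter is shown because STAT5 binds the sequence TTCNNNGAA, which reads the same on both strands, and because this promoter holds it more often than any other of the 8422 tested genes with a promoter in the table. The 250 bases before its start, at chr8:116850719-116850968 on the plus strand of GRCr8, carry 4 matches, in capitals:
Cish: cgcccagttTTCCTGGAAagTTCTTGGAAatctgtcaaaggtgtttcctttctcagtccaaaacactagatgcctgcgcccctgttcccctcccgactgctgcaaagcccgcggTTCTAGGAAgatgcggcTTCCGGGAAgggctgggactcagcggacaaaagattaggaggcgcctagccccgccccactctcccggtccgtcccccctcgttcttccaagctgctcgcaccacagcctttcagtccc
Counted upstream from the start, the matches begin 241, 230, 136 and 119 bases away and read TTCCTGGAA, TTCTTGGAA, TTCTAGGAA and TTCCGGGAA. At least 1 such match stood in 5.92% of the 8422 tested genes' promoters of this length, in 11.5% of the 113 promoters of genes that fell at least 2-fold and in 4.42% of the 181 promoters of genes that rose at least 2-fold. Of the 16 promoters of tested members of the growth hormone list, 1 held a match (6.25%), that of Cish. At least 2 matches stood in 29 of the 8422 promoters and at least 4 in 1, that of Cish. Genes were matched to the table by symbol, and a match describes letters only.

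Cish had 8.22 to 368 (median 263) normalised read counts in air and 1.92 to 7.81 (median 4.63) in ozone. Air 1, 2, 7 and 10 held 259 to 368, whereas air 6 with 11.4 and air 9 with 8.22 lay close above the highest ozone library. No ozone library reached the lowest air library, and Cish fell by 4.21 on the log2 scale (SE 0.90, adjusted p = 0.00692). Socs2, the suppressor of cytokine signalling that limits growth hormone action, had 89.5 to 778 (median 512) in air and 20.6 to 43.8 (median 23.8) in ozone (log2 fold change -3.67 ± 0.47, adjusted p = 1.28e-04). The same air 6 and air 9 were its lowest air libraries, at 193 and 89.5, still above every ozone library. Onecut1, a hepatocyte transcription factor that growth hormone induces, had 28.3 to 542 (median 161) in air and 1.27 to 40.1 (median 18.1) in ozone (log2 fold change -3.28 ± 0.72, adjusted p = 0.00813). Its groups touched, with air 9 at 28.3 under ozone 13 at 40.1.

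Bcl6, a repressor that competes with STAT5 for its sites in liver, ran the other way within the air group. Air 6 and air 9 held 610.0 and 871 normalised read counts, the other 4 air libraries 88.9 to 188, and the ozone libraries 358 to 533 (median 411). The ozone values sat between these air sets, and the difference was not past the threshold (log2 fold change 0.92 ± 0.48, adjusted p = 0.281). Bcl6 passed in limma without air 9 (1.31, adjusted p = 0.0463) but without no other single library. Whether air 6 and air 9 differ from the other air libraries in any respect is not given in the labels, and what lies behind their values was not tested.

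Other genes of the axis had smaller changes. Igfals, the liver-made subunit that stabilises circulating insulin-like growth factor, had 2741 to 4631 (median 4193) in air and 2427 to 2763 (median 2543) in ozone, without overlap except for the air 1 value of 2741 against a highest ozone value of 2763 (log2 fold change -0.60 ± 0.13, adjusted p = 0.00893). The steroid dehydrogenase gene Hsd3b5 also fell (-1.09 ± 0.15). Igf1 itself had 7504 to 13469 (median 10031) in air and 6969 to 13839 (median 9666) in ozone, groups that overlapped over nearly their whole range (log2 fold change -0.04 ± 0.19, adjusted p = 0.941). The receptor Ghr (-0.18 ± 0.17), Stat5b (-0.20 ± 0.19) and the male-specific P450 Cyp2c11 (-0.06 ± 0.13) were not past the threshold.

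**Figure D3:**
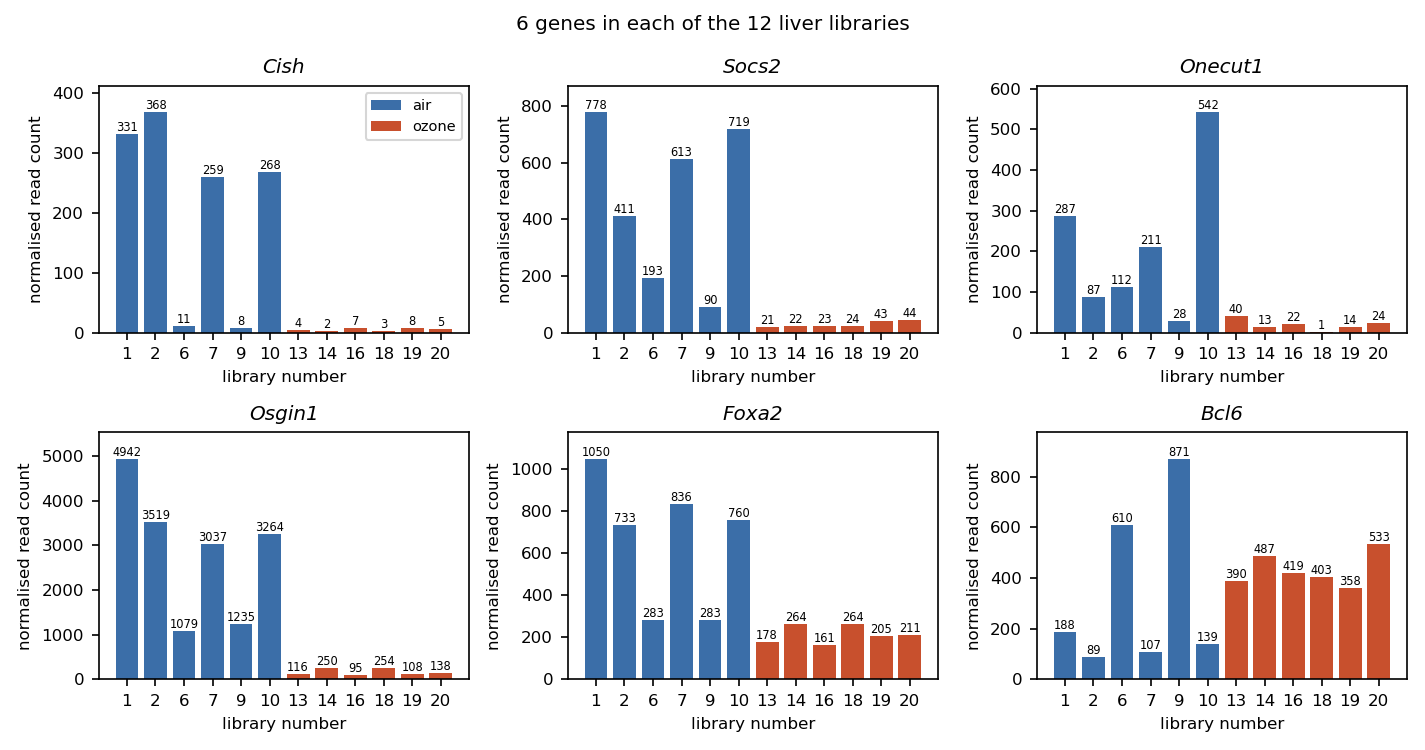
Normalised read counts of Cish, Socs2, Onecut1, Osgin1, Foxa2 and Bcl6 in each liver library, numbered as in the labels, with air in blue and ozone in red; 1 bar is 1 library. Air 6 and air 9 have the lowest air values of Cish, Socs2, Osgin1 and Foxa2 and the highest of Bcl6, and all 6 ozone libraries are low for Cish, Socs2 and Osgin1.

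Of 35 tested glucocorticoid-responsive genes 14 rose and 2 fell, the other 19 did not pass the threshold, and the median log2 fold change was 0.60. Fkbp5, which binds the receptor complex and damps its response to hormone, had 224 to 605 (median 304) normalised read counts in air and 2176 to 2907 (median 2253) in ozone. Air 9, at 605, was highest of the air libraries and still well under the lowest ozone library. Fkbp5 rose by 2.86 ± 0.19 (adjusted p = 4.72e-07), a fold of 7.26. Cdkn1a, which encodes the cyclin-dependent kinase inhibitor p21, had 151 to 427 (median 219.9) in air and 2574 to 3684 (median 3122) in ozone. The ozone libraries lay close together and at least 6-fold above air 1, the highest air library (log2 fold change 3.79 ± 0.21, adjusted p = 1.35e-07).

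Per1, a clock gene with glucocorticoid response elements, split the air group, with air 7 and air 10 at 37.6 and 31.1 and air 2, 6 and 9 between 181 and 213. All ozone libraries lay above them at 267 to 448 (median 359.8) (log2 fold change 1.91 ± 0.44, adjusted p = 0.0113). Tsc22d3, the leucine zipper gene GILZ, had 529.6 to 1641 (median 1117) in air and 1779 to 2846 (median 1989) in ozone and rose by 1.04 ± 0.25 (adjusted p = 0.0127). Other members that rose were the phosphatidate phosphatase Lpin1 (2.23 ± 0.38), the stress genes Gadd45b (1.99 ± 0.36) and Ddit4 (0.87 ± 0.18), and the transcription factor Cebpb (0.76 ± 0.18).

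Several textbook glucocorticoid targets were not past the threshold. The kinase Sgk1 (-0.29 ± 0.26, adjusted p = 0.59), the phosphatase Dusp1 (-0.58 ± 0.27, 0.225) and Pdk4, which restrains glucose oxidation (-0.39 ± 0.35, 0.591), had negative estimates. Zbtb16, a zinc-finger target, had 43.0 to 769 (median 82.9) in air and 229 to 716 (median 482) in ozone. Air 6 alone held 769, above every ozone library, and the estimate of 1.82 ± 0.58 missed the threshold (adjusted p = 0.0598). The receptor gene Nr3c1 had 1795 to 4616 (median 3710) in air and 1234 to 2261 (median 1844) in ozone, with air 2 and air 9 inside the ozone range (log2 fold change -0.87 ± 0.25, adjusted p = 0.0367). Its call ended without air 1, 6, 7 or 10 or ozone 14, 18 or 19, with adjusted p between 0.0596 and 0.0854.

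Genes of amino acid breakdown rose. Of 47 tested catabolism genes 12 rose and 1 fell, and 39 had a positive estimate, with a median of 0.18. Sds, Tat and Tdo2 among the risers are counted again here from the glucocorticoid-responsive list. Leaving out 1 library gave 8 to 13 risers. Sds, which turns serine into pyruvate, had 345 to 1298 (median 892) normalised read counts in air and 4264 to 9658 (median 6075) in ozone (log2 fold change 3.01 ± 0.32, adjusted p = 3.18e-05). Air 1 and air 6 were lowest in air, and the lowest ozone library was above 3 times the highest air library. Got1, the cytosolic aspartate aminotransferase, had 2448 to 7215 (median 4092) in air and 22453 to 37812 (median 27481) in ozone (log2 fold change 2.85 ± 0.25, adjusted p = 4.95e-06). Tat, which starts tyrosine breakdown, and Tdo2, which starts tryptophan breakdown, are classical glucocorticoid-induced liver enzymes. Tat had 5956 to 14914 (median 11104) in air and 30144 to 40919 (median 37444) in ozone, and Tdo2 had 11068 to 27675 (median 16604) and 57195 to 86752 (median 64926). Neither gene's groups overlapped, and the log2 fold changes were 1.80 ± 0.18 (adjusted p = 1.83e-05) and 2.02 ± 0.19 (adjusted p = 9.91e-06).

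Lysine breakdown gene Aass went from 3357 to 5507 (median 3781) to 7610 to 13505 (median 10224) (log2 fold change 1.35 ± 0.16, adjusted p = 6.80e-05). Mat1a, which makes the methyl donor S-adenosylmethionine, had 42544 to 136898 (median 74392) in air and 142111 to 235153 (median 194770) in ozone (log2 fold change 1.31 ± 0.23, adjusted p = 0.00164), again without overlap. The member that fell was Kmo of the kynurenine branch (-0.57 ± 0.13).

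Urea cycle genes, which dispose of amino acid nitrogen, rose: 6 of 9 tested members did so, with a median of 0.78. The 2 largest increases were in the mitochondrial carriers rather than the enzymes. Slc25a15, which exchanges ornithine and citrulline across the inner membrane, had 9561 to 15325 (median 11193) normalised read counts in air and 54383 to 73948 (median 57384) in ozone, a gap of more than 3-fold between the nearest libraries of the groups (log2 fold change 2.39 ± 0.13, adjusted p = 1.31e-07). Slc25a22, a glutamate carrier, had 627 to 1279 (median 957) in air and 2836 to 4362 (median 3710) in ozone (log2 fold change 1.94 ± 0.17, adjusted p = 6.75e-06).

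Among the enzymes, Asl had 1209 to 4736 (median 3412) in air and 6681 to 10484 (median 7220) in ozone, and Arg1, which releases urea, had 8667 to 23689 (median 12845) and 24234 to 46962 (median 28288). Ozone libraries lay above all air libraries for both, although by little for Arg1 (log2 fold changes 1.37 ± 0.28 and 1.18 ± 0.26, adjusted p = 0.0054 and 0.00907). Ass1 (0.78 ± 0.22, adjusted p = 0.0301) and Cps1 (0.43 ± 0.12, adjusted p = 0.0291) rose less. The Ass1 call ended without air 6 or ozone 14, 18 or 20 (adjusted p 0.0533 to 0.0657), and the Cps1 call without air 2, 6, 7 or 10 or ozone 13, 14, 16 or 20 (0.056 to 0.071) and on values rescaled to the same total (0.0632). Otc, the ornithine transcarbamylase, had 6927 to 25610 (median 8984) in air and 6480 to 11971 (median 8755) in ozone. Air 1 stood far above the other 11 libraries, and the difference was not past the threshold (-0.26 ± 0.27, adjusted p = 0.667).

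Amino acid transport and polyamine genes changed as well. Of 29 amino acid transporter genes 9 rose and 2 fell, the carriers Slc25a15 and Slc25a22 counted again among them. Slc16a10, a carrier of aromatic amino acids, had 196 to 301 (median 268) in air and 718 to 1255 (median 1032) in ozone (log2 fold change 1.94 ± 0.15, adjusted p = 2.33e-06). Slc38a2, a neutral amino acid transporter, had 973 to 1982 (median 1401) in air and 1885 to 6881 (median 3851) in ozone. Ozone 18 at 1885 fell under air 1 at 1982, and the log2 fold change was 1.53 ± 0.29 (adjusted p = 0.003). Slc38a4 (0.99 ± 0.11), Slc1a4 (1.38 ± 0.21) and the heavy chain Slc3a2 (0.83 ± 0.11) rose, while Slc7a5, a large neutral amino acid carrier that pairs with Slc3a2, fell (-0.94 ± 0.22; named after its value was seen).

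Of 12 polyamine genes 4 rose and 1 fell. Amd1, which makes the aminopropyl donor, had 773 to 1523 (median 1368) in air and 3269 to 5715 (median 4156) in ozone, with every ozone library more than 2-fold above the highest air library (log2 fold change 1.83 ± 0.20, adjusted p = 3.22e-05). Ornithine decarboxylase Odc1 (0.82 ± 0.10), spermine oxidase Smox (0.97 ± 0.17) and the antizyme inhibitor Azin1 (0.81 ± 0.14) were the others that rose.

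Gluconeogenesis genes rose, with the largest increases in the coactivator Ppargc1a and in the aminotransferase Got1, which is counted again here from the catabolism list. In the gluconeogenesis list 9 of 24 tested genes rose and 1 fell, with a median of 0.33. The coactivator Ppargc1a, induced in liver by fasting, glucagon and glucocorticoids, had 32.7 to 89.9 (median 49.0) normalised read counts in air and 181 to 542 (median 406) in ozone. Ozone 18 was the lowest ozone library and still about 2-fold above air 6, the highest in air (log2 fold change 2.88 ± 0.29, adjusted p = 1.54e-05). Its relative Ppargc1b rose by 2.78 ± 0.45. Foxo1, the insulin-restrained transcription factor, had 301 to 558 (median 391) in air and 742 to 2405 (median 1752) in ozone, with ozone 18 lowest again at 742 (log2 fold change 1.97 ± 0.25, adjusted p = 1.50e-04).

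G6pc, the phosphatase that releases glucose, had 4964 to 15286 (median 8532) in air and 13727 to 26402 (median 20176) in ozone. Ozone 18 at 13727 lay under air 6 at 15286, and G6pc rose by 1.18 ± 0.24 (adjusted p = 0.00486). Pck1, the other rate-setting enzyme, had 41159 to 70322 (median 52678) in air and 40917 to 64023 (median 58312) in ozone, overlapping throughout, and its log2 fold change of 0.10 ± 0.15 missed the threshold (adjusted p = 0.79). Fbp1 was not past it either (0.21 ± 0.23). The cyclic AMP-responsive repressor gene Crem fell (-0.85 ± 0.16).

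**Figure D4:**
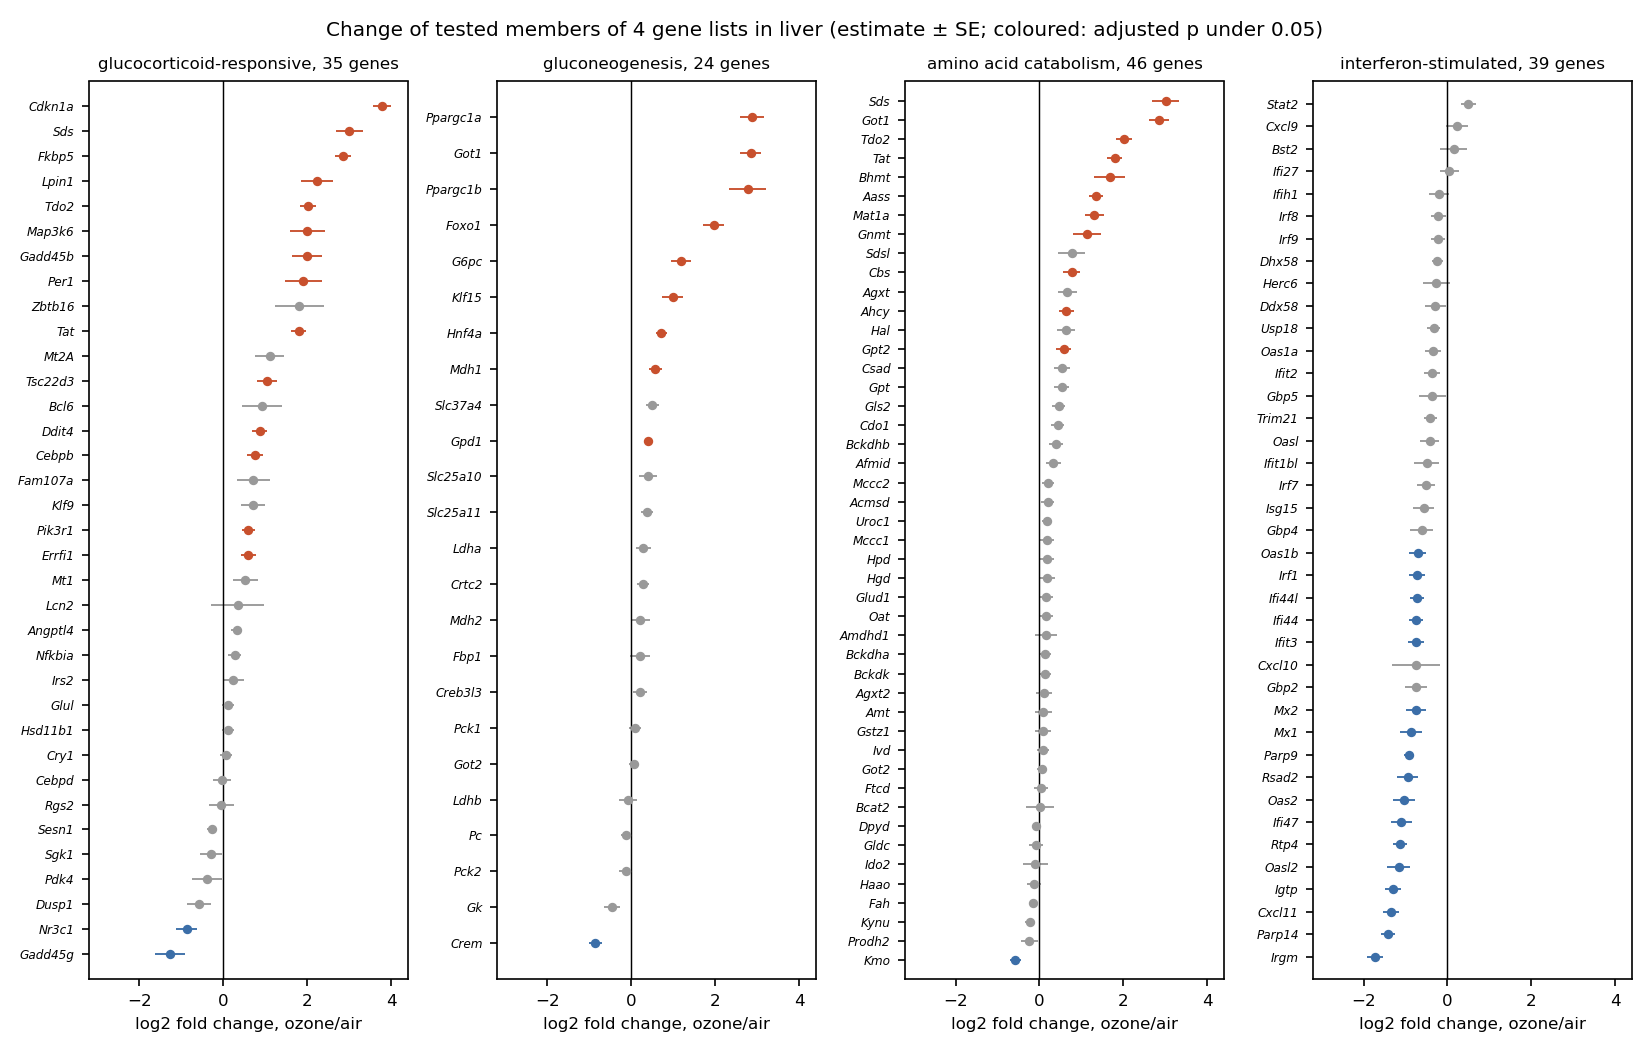
Log2 fold change of ozone over air with its standard error for tested members of the glucocorticoid-responsive (35 shown), gluconeogenesis (24), amino acid catabolism (46 of 47) and interferon-stimulated (39 of 40) lists; red rose, blue fell and grey did not pass an adjusted p of 0.05. In the first 3 panels the coloured points lie mainly to the right of 0, and in the interferon panel all 17 coloured points lie to the left.

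Insulin-linked and glycogen genes changed in single members. Of 27 insulin and IGF signalling genes 4 rose and 0 fell, and leaving out 1 library gave 2 to 4 risers. Another list, of glucose transport, glycolysis and glycogen genes, holds Ppp1r3c, Ppp1r3g and Ugp2. Of its 37 tested members 5 rose and 3 fell, and leaving out 1 library gave 3 to 6 risers. Igfbp1, a secreted binding protein that insulin represses and FOXO1 induces, had 270.2 to 602 (median 484) normalised read counts in air and 788 to 1784 (median 1428) in ozone (log2 fold change 1.61 ± 0.22, adjusted p = 2.58e-04). The glycogen-targeting subunit Ppp1r3c had 788 to 3572 (median 2449) in air and 7633 to 10393 (median 8912) in ozone, without overlap (log2 fold change 2.07 ± 0.27, adjusted p = 1.80e-04), and its relative Ppp1r3g rose too (2.58 ± 0.45). Ugp2, which makes the glycogen precursor UDP-glucose, fell (-0.83 ± 0.14). Irs2 (0.24 ± 0.25) and Insr (0.14 ± 0.23) were not past the threshold.

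Fat oxidation genes rose in part: 6 of 38 tested members rose, 1 fell and the median was 0.20. Pex11a, which promotes peroxisome division, had 655 to 1411 (median 809) in air and 2972 to 4474 (median 3918) in ozone (log2 fold change 2.12 ± 0.18, adjusted p = 3.68e-06). Carnitine acetyltransferase Crat had 105 to 232 (median 199) and 477 to 677 (median 588) (log2 fold change 1.73 ± 0.18, adjusted p = 2.72e-05). Both separated the groups by at least 2-fold. Cpt1a, the gate of mitochondrial fatty acid entry, had 2861 to 8875 (median 6455) in air and 8989 to 13881 (median 11192) in ozone. Air 1, 6 and 10 lay just under the ozone range and air 2, 7 and 9 far below it (log2 fold change 1.03 ± 0.27, adjusted p = 0.0245); the call ended without air 7 or 9 or ozone 16 or 20 (0.0517 to 0.06) and in edgeR (0.0501). Pdk4, the fatty acid receptor Ppara (0.60 ± 0.43) and the hormone Fgf21 (-0.25 ± 0.26) were not past the threshold. Of 27 lipogenesis genes 1 rose, Lpin1, and 2 fell, the oxysterol receptor Nr1h3 (-0.51 ± 0.13) among them. Fatty acid synthase Fasn (-0.72 ± 0.28, adjusted p = 0.13), Scd (0.28 ± 0.28) and Srebf1 (-0.21 ± 0.21) were not past the threshold.

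Sterol genes split. Of 34 cholesterol synthesis and uptake genes 3 rose and 6 fell. Insig1, which holds the SREBP pathway back in the endoplasmic reticulum, had 2527 to 8146 (median 4748) in air and 16570 to 33421 (median 21217) in ozone, with a gap of about 2-fold between the groups (log2 fold change 2.25 ± 0.27, adjusted p = 8.96e-05). The synthesis gene Msmo1 fell (-0.90 ± 0.20). Without ozone 14 the number that fell was 3.

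Single bile acid genes changed. Of 26 bile acid genes 3 fell and 1 rose. Baat, which joins bile acids to taurine or glycine, had 15559 to 19799 (median 17094) in air and 5815 to 7613 (median 6966) in ozone. Both groups were narrow, and the lowest air library was over 2-fold above the highest ozone library (log2 fold change -1.35 ± 0.10, adjusted p = 1.98e-06). Amacr, a racemase of side-chain oxidation, had 4288 to 12192 (median 9153) in air and 2403 to 3376 (median 3148) in ozone (log2 fold change -1.51 ± 0.21, adjusted p = 3.08e-04). The uptake transporter Slco1b2 also fell (-0.73 ± 0.13). Cyp7a1, the rate-limiting enzyme of bile acid synthesis, had 372 to 2437 (median 1077) in air and 1357 to 7208 (median 3025) in ozone, with ozone 13 alone above 3495 and ozone 14 and 18 inside the air range. Its increase of 1.54 ± 0.47 was at the threshold (adjusted p = 0.0493). It passed in 3 of the 12 fits that left out 1 library, those without air 6, air 9 or ozone 18, and it did not pass in edgeR (0.0712) or DESeq2 (0.0525). Cyp8b1 (0.14 ± 0.25) and the export pump Abcb11 (0.26 ± 0.11) were not past the threshold.

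Most xenobiotic genes did not pass the threshold: 8 of 49 phase I genes rose and 2 fell, with a median of -0.07, and 3 of 30 phase II genes rose and 4 fell. The largest rise was in Por, the reductase that feeds electrons to all microsomal P450 enzymes, with 646 to 2291 (median 943) in air and 5510 to 8085 (median 6897) in ozone. Air 9 was highest in air and the gap to the ozone libraries was over 2-fold (log2 fold change 2.68 ± 0.28, adjusted p = 2.29e-05). Nr1i2, the pregnane X receptor, had 912 to 2069 (median 1245) in air and 2793 to 3611 (median 3122) in ozone (log2 fold change 1.28 ± 0.16, adjusted p = 1.39e-04). The steroidogenic Cyp17a1 (2.06 ± 0.25), the retinoic acid hydroxylase Cyp26a1 (1.36 ± 0.25) and the epoxide hydrolase Ephx2 (1.30 ± 0.13) rose as well. The main drug-metabolising P450 genes Cyp1a2 (-0.01 ± 0.20), Cyp2e1 (-0.16 ± 0.17) and Cyp3a2 (-0.50 ± 0.18) did not pass the threshold.

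Hepatocyte transcription factors moved in both directions, 4 of 30 up and 6 down. Hnf4a had 5625 to 9596 (median 7414) in air and 11150 to 13651 (median 11604) in ozone (log2 fold change 0.71 ± 0.13, adjusted p = 0.00239). It is a master regulator of hepatocyte identity, and no ozone library fell inside its air range. Foxa2, the pioneer factor, had 283 to 1050 (median 747) in air and 161 to 264 (median 208) in ozone. Air 6 and air 9, both at 283, were the lowest air libraries and just above the highest ozone library (log2 fold change -1.47 ± 0.31, adjusted p = 0.00646). Foxa1 (-0.99 ± 0.25) and Onecut1 were other fallers.

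Genes known from periportal hepatocytes, where urea and glucose are made, rose in 8 of 18 cases and fell in 1, with a median of 0.44. This list shares Sds, Asl, Arg1, Ass1, Cps1 and G6pc with the lists above. Its other risers were Cyp17a1 and Etnppl, a phospholyase that fasting induces (2.76 ± 0.22). Of 17 pericentral genes 1 rose and 1 fell, with a median of -0.15. Whole liver cannot tell fewer cells of a kind from less RNA per cell.

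Clock genes changed in 9 of 21 tested members, 6 up and 3 down. Noct, the rhythmic nocturnin gene, had 19.6 to 51.7 (median 22.8) in air and 110.1 to 818 (median 482) in ozone, the ozone libraries ranging over 7-fold among themselves with ozone 20 lowest (log2 fold change 3.72 ± 0.47, adjusted p = 1.32e-04). Usp2, a rhythmic deubiquitinase, had 24.2 to 217 (median 61.8) in air and 410.5 to 532 (median 466) in ozone (log2 fold change 2.75 ± 0.46, adjusted p = 0.00122). Air 6 and air 9 were its highest air libraries, and the ozone libraries were uniform above them. Arntl, the clock activator BMAL1, had 186 to 458 (median 359.9) in air and 506 to 732 (median 668) in ozone (0.99 ± 0.19, adjusted p = 0.00369). Per2 moved opposite to Per1, with 76.7 to 154 (median 121) in air and 31.3 to 53.5 (median 45.0) in ozone (-1.41 ± 0.19, adjusted p = 2.18e-04). Bhlhe40, a repressor within the clock, fell by 1.31 on the log2 scale (SE 0.33, adjusted p = 0.0182). Nr1d1 (-0.47 ± 0.28) and Dbp (-1.34 ± 0.55, adjusted p = 0.154) were not past the threshold with all libraries. Air 1 held 22.1 for Dbp, and the other air libraries 123 to 353. Without air 1 both passed in limma (Dbp -1.84, adjusted p = 0.00535, and Nr1d1 -0.71, 0.0327), but without no other single library. Both passed with array weights (0.00354 and 0.0376), and Dbp in DESeq2 (0.0124). The labels give no time of day for the collection of each liver.

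Interferon-stimulated genes fell: 18 of 40 tested members fell, 0 rose, 36 had a negative estimate, and the median was -0.59. Leaving out 1 library gave 12 to 19 fallers, and no filter on low values gave 15. At an unadjusted p under 0.05 in limma 1 member was up and 23 were down, and edgeR and DESeq2 called 0 up, with 17 and 18 down. Promoters of 2 members that fell are shown because they carry, side by side, the STAT sequence TTCNNNGAA and an interferon element, GAAA followed by any 2 bases and a further GAAA. Each was searched on both strands in the 250 bases before the start, with no base shared by the motifs marked here in capitals. Parp14 lies at chr11:78407884-78408133 and Igtp at chr10:42874797-42875046, both on the plus strand of GRCr8:
Parp14: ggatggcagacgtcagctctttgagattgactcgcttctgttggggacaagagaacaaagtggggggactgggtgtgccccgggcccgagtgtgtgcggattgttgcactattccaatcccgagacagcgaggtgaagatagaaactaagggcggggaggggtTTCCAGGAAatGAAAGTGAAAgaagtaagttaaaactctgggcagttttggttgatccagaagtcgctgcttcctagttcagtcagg
Igtp: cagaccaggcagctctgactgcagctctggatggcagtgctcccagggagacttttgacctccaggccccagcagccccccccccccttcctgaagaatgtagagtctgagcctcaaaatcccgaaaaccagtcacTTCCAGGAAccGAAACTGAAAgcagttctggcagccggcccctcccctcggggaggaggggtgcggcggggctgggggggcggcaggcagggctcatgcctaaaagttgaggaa
The interferon element stood in 19 of the 30 list members whose promoter was in the table, 63.3%, against 2.78% of the 8422 tested genes with a promoter. The STAT sequence stood in 40.0% of those members against 5.92%. The list was chosen as interferon-stimulated genes, so its share against all genes does not bear on their fall. Of the 14 members that fell and had a promoter, 9 held the interferon element (64.3%), near the share of all 30. The STAT sequence stood in 57.1% of these 14. Whether either sequence goes with the fall was not tested.

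Irgm, an interferon-induced GTPase, had 533 to 1007 (median 832) normalised read counts in air and 143 to 311 (median 249.8) in ozone. Air 9 was lowest in air, and no ozone library reached it (log2 fold change -1.72 ± 0.20, adjusted p = 4.82e-05). Parp14, which acts in cytokine signalling to STAT factors, had 1522 to 2744 (median 2026) in air and 610.2 to 995 (median 734) in ozone (-1.41 ± 0.17, adjusted p = 7.39e-05). The chemokine Cxcl11 had 282 to 420.0 (median 381) in air and 99.8 to 224 (median 129.9) in ozone (-1.35 ± 0.19, adjusted p = 3.54e-04). None of these groups overlapped. The GTPase Igtp (-1.30 ± 0.20), Rtp4 (-1.13 ± 0.17), Parp9 (-0.92 ± 0.12) and Ifit3 (-0.75 ± 0.19) fell with them. Isg15 (-0.56 ± 0.25), Irf7 (-0.51 ± 0.22) and Gbp2 (-0.75 ± 0.27) were not past the threshold in limma, edgeR or DESeq2. With array weights in limma each passed (adjusted p 0.0253, 0.00673 and 0.0272). Irf7 also passed without air 1 (0.0132), and Gbp2 without ozone 19 (0.0289). In the MHC list 2 of 29 genes fell.

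Markers of other liver cells that express interferon-stimulated genes were set beside this result. Of the tested endothelial, T and NK, B lymphocyte and neutrophil markers 0 passed the threshold in limma with all 12 libraries. The sums of each of these lists overlapped between air and ozone. With array weights 1 endothelial, 1 T and NK and 3 neutrophil markers fell, and edgeR and DESeq2 each called 1 endothelial marker down. Of 18 liver endothelial markers 17 had a negative estimate (median -0.38). Their summed level was 5197 to 10113 (median 8177) in air and 4839 to 8160 (median 6135) in ozone. The 10 tested T and NK lymphocyte markers had a median of -0.42. The sum of all 23 was 456 to 762 (median 524) in air and 272 to 676 (median 445) in ozone. The 5 tested B lymphocyte markers had a median of -0.67, with sums over 16 genes of 1888 to 3855 (median 2078) and 1830 to 2546 (median 2048). Kupffer cell and macrophage markers had a median of -0.07 and 1 of 18 fell, the iron exporter Slc40a1, whose call ended without air 2, 6, 7 or 9 or ozone 13 or 20 (adjusted p 0.0518 to 0.0627). Their sums were 13401 to 18837 (median 15715) in air and 10343 to 19015 (median 14304) in ozone. The 4 tested neutrophil markers all had negative estimates (median -0.60). The sum of 14 neutrophil markers was 158 to 249 (median 209) in air and 83.4 to 226 (median 156) in ozone. Stellate cell and cholangiocyte markers had medians of -0.01 and 0.02. The neutrophil marker Camp was at 0 in all libraries, and no marker of the other cell lists named here was. The summed interferon list was 21098 to 27956 (median 23776) in air and 14196 to 18274 (median 17529) in ozone, without overlap. The part of these cells in the interferon result was not tested.

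Of 30 genes of the antioxidant response under NRF2, 3 fell and 0 rose, with a median of -0.15. At an unadjusted p under 0.05 in limma 1 gene was up and 7 were down, and edgeR and DESeq2 also called 0 up and 3 down. Osgin1, a growth inhibitor named for its induction by oxidative stress, had 1079 to 4942 (median 3151) in air and 95.5 to 254 (median 127) in ozone. Air 6 and air 9 were lowest in air and still more than 4-fold above every ozone library (log2 fold change -4.06 ± 0.38, adjusted p = 9.36e-06). Nfe2l2, the gene of NRF2 itself, had 709 to 1177 (median 911) in air and 272 to 409 (median 343) in ozone, without overlap (-1.44 ± 0.14, adjusted p = 1.20e-05). The glutathione synthesis subunit Gclm had 953 to 1465 (median 1246) in air and 394 to 942 (median 645) in ozone (-0.97 ± 0.19, adjusted p = 0.00433). Nqo1 (0.02 ± 0.16) and Hmox1 (-0.23 ± 0.20), the usual readouts of the pathway, were not past the threshold. Without air 1 and ozone 18 together, the 2 ends of the first principal component, 6 genes of the list fell.

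Most acute-phase genes did not pass the threshold. Of 31 genes 4 rose, Il6r, Stat3, the interleukin-1 receptor antagonist Il1rn (1.11 ± 0.22) and the methyltransferase Nnmt (0.85 ± 0.21). Stat3, the transducer of interleukin-6, had 1248 to 1922 (median 1584) in air and 2525 to 3544 (median 2844) in ozone (0.91 ± 0.12, adjusted p = 1.68e-04). The receptor Il6r had 965 to 2907 (median 1609) in air and 3714 to 5470 (median 3899) in ozone, where the 6 ozone libraries all exceeded air 6, the highest of the air group (1.36 ± 0.25, adjusted p = 0.00238). Haptoglobin Hp (0.15 ± 0.18), Orm1 (0.13 ± 0.23), A2m (0.29 ± 0.28) and Fgb (-0.17 ± 0.16) were not past the threshold.

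Unfolded-protein genes gave 6 risers and 1 faller among 36. Edem1, which passes misfolded glycoproteins to degradation, had 2488 to 5850 (median 3365) in air and 15127 to 42237 (median 28338) in ozone, with over 2-fold between the nearest libraries (log2 fold change 2.81 ± 0.28, adjusted p = 1.70e-05). Xbp1, the transcription factor upstream of Edem1, had 1360 to 2455 (median 1833) in air and 651 to 1036 (median 739) in ozone and fell (-1.25 ± 0.16, adjusted p = 1.57e-04). The chaperone Hspa5 (-0.03 ± 0.16), Ddit3 (0.06 ± 0.27) and Atf4 (-0.18 ± 0.14) were not past the threshold. Among 22 heat-shock and cold-inducible genes, the cold-inducible RNA-binding genes Rbm3 and Cirbp rose and the cochaperones Hsph1 and Dnaja1 fell. The Hsph1 call ended without air 2 or ozone 13, 14, 19 or 20 (adjusted p 0.0548 to 0.0606). Rbm3 had 205 to 407 (median 241) in air and 738 to 1306 (median 913) in ozone, where air 7 was highest in air and ozone 18 highest of all (1.87 ± 0.18, adjusted p = 1.15e-05). Cirbp rose by 1.20 ± 0.18 (adjusted p = 3.85e-04).

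Genes of p53 and growth arrest changed in both directions, 8 of 25 p53 targets rising and 5 falling; without air 9, or without ozone 16, 5 rose. Beside Cdkn1a, the kinase Plk3 rose by 2.42 ± 0.20 and cyclin Ccng1 by 0.94 ± 0.13, whereas Mdm2, the textbook target, was at 0.13 ± 0.14 (adjusted p = 0.671). Gdf15, a secreted stress hormone, fell from 12.6 to 172 (median 37.1) to 4.80 to 20.4 (median 8.64) with overlap, air 7 standing far above the rest (-1.87 ± 0.55, adjusted p = 0.0398). Its call ended without air 2, 7, 9 or 10 or ozone 13, 14, 16 or 20 (0.0676 to 0.0944) and with a pseudocount of 10 (0.0553). Of 35 cell-cycle genes 3 rose and 2 fell. Ccnd1, the cyclin of cell-cycle entry, had 447 to 725 (median 582) in air and 213 to 357 (median 272) in ozone (-1.08 ± 0.14, adjusted p = 1.80e-04), and Ccne1 rose from 0.91 to 10.3 (median 7.24) to 21.2 to 51.0 (median 30.9) (2.28 ± 0.40, adjusted p = 0.00162). The proliferation marker Mki67 was at -0.06 ± 0.29 (adjusted p = 0.946). Dusp6, a feedback phosphatase of ERK signalling, had 508 to 2286 (median 1286) in air and 118 to 213 (median 155) in ozone and fell (-2.88 ± 0.33, adjusted p = 4.59e-05), while the immediate early genes Fos (0.14 ± 0.67) and Egr1 (0.08 ± 0.44) were not past the threshold.

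Among 22 genes for proteins that liver secretes as signals, 2 rose and 3 fell. Agt, the angiotensin precursor, had 8684 to 16645 (median 11038) in air and 18457 to 30210 (median 21924) in ozone, with all ozone libraries above all air libraries (0.95 ± 0.17, adjusted p = 0.0016). Inhba, which forms activin A, had 82.2 to 416 (median 257) in air and 20.4 to 72.7 (median 45.6) in ozone (-2.29 ± 0.38, adjusted p = 0.00121). Metallothionein Mt2A had 1567 to 6278 (median 3263) in air and 4578 to 15386 (median 5572) in ozone, with air 2 and air 9 inside the ozone range, and missed the threshold (1.11 ± 0.34, adjusted p = 0.0516). It passed on values rescaled to the same total (0.0467) and in DESeq2 (0.0126) but not in edgeR (0.0543). Zinc transporter Slc30a2 rose by 1.19 ± 0.22 among 22 metallothionein and zinc genes.

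Lung, the tissue that ozone reaches directly, was the comparison tissue for a test of whether the change differed between tissues. Among 12112 genes tested in both, the liver change differed from the lung change in 830 (6.85%), being higher in 407 (3.36%) and lower in 423 (3.49%). The tables were normalised separately, so only changes within each tissue are compared. Liver and lung share 10 library numbers, and the labels do not say whether equal numbers mark the same rat. The test treats the libraries as independent, and with the number as a replicate block 674 of the 830 passed and no others. Osgin1 fell in liver and rose in lung (1.18 ± 0.20), a difference of -5.23 ± 0.46 (adjusted p = 1.15e-07). Socs2 likewise fell in liver and rose in lung (0.90 ± 0.11, difference -4.56 ± 0.51, adjusted p = 2.26e-06), and so did Arrdc3 (0.92 ± 0.21, difference -3.59 ± 0.51). Cish was not past the threshold in lung (0.36 ± 0.14), and the difference was -4.57 ± 1.01 (adjusted p = 0.00517). Dusp6 differed by -3.13 ± 0.37 (adjusted p = 3.48e-06). Mt2A rose by 4.64 ± 0.36 in lung, and the liver change was lower by 3.53 on the log2 scale (SE 0.54, adjusted p = 1.19e-04).

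In the other direction, Slc12a3 changed by 0.10 ± 0.43 in lung, and the liver change was higher by 5.31 ± 0.51 (adjusted p = 2.74e-07). The coactivator genes Ppargc1a (-0.13 ± 0.25 in lung, difference 3.01 ± 0.41) and Ppargc1b (-1.11 ± 0.26, difference 3.89 ± 0.54) and the lipid droplet gene Plin5 (-1.12 ± 0.53, difference 2.99 ± 0.60) were likewise higher in their liver change. Tor3a (3.12 ± 0.26), Noct (3.06 ± 0.53), Zfp354a (3.03 ± 0.67) and Spsb4 (4.24 ± 0.40) completed the 8 largest positive differences. Fkbp5 and Cdkn1a had increases in lung too, of 2.94 ± 0.32 and 2.21 ± 0.11.

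**Figure D5:**
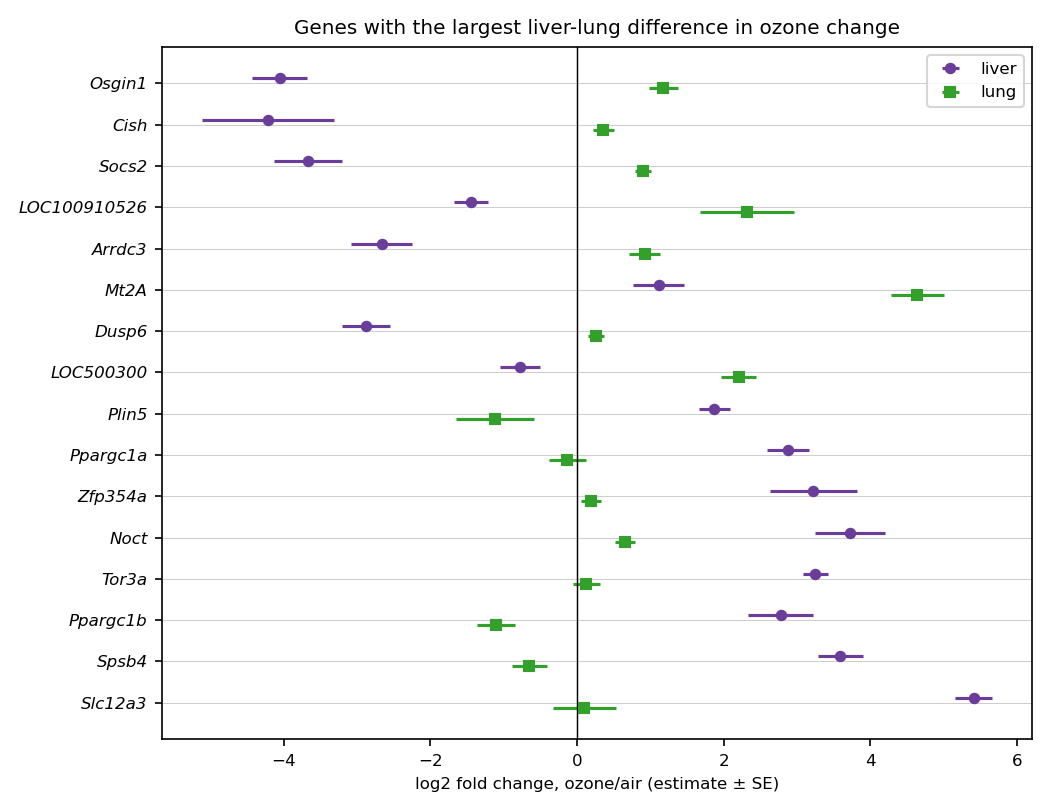
Log2 fold change of ozone over air with its standard error in liver (purple circles) and lung (green squares) for the 16 genes with the largest liver minus lung difference in either direction. Osgin1, Socs2 and Arrdc3 lie left of 0 in liver and right of 0 in lung, and Slc12a3 stands at 5.41 in liver and 0.10 in lung.

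The genes with the largest liver changes were also fitted in each other tissue's own table. Cdkn1a rose by 0.94 ± 0.18 in adrenal gland, 2.37 ± 0.21 in hypothalamus, 2.66 ± 0.26 in adipose tissue and 2.85 ± 0.34 in muscle. Fkbp5 rose by 0.60 ± 0.14, 1.90 ± 0.20, 1.81 ± 0.28 and 2.75 ± 0.35 in the same order. Genes past the threshold made up 18.6% of those tested in adrenal gland, 1.41% in hypothalamus, 7.32% in adipose tissue, 43.7% in muscle and 17.7% in lung. Slc12a3 rose in adipose tissue as well (1.91 ± 0.36, adjusted p = 0.00836), did not pass the threshold in lung, adrenal gland or hypothalamus, and was too low to be tested in muscle. Ppargc1a did not pass in any of the 5 other tissues, with estimates from -0.19 in hypothalamus to 0.38 in muscle. Whether these changes differ from the liver changes was tested for lung only.

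Cish had negative estimates in adipose tissue (-2.15 ± 0.78), muscle (-1.39 ± 0.78), adrenal gland (-0.98 ± 0.40) and hypothalamus (-0.53 ± 0.30), none past the threshold. Socs2 fell in adrenal gland (-0.99 ± 0.21, adjusted p = 0.00536). Dusp6 fell in muscle (-1.42 ± 0.19, adjusted p = 1.00e-04). Arrdc3, which fell in liver, rose in adipose tissue (1.79 ± 0.42) and muscle (1.07 ± 0.16). Rad51d fell in adipose tissue (-0.99 ± 0.14) and adrenal gland (-0.61 ± 0.17) in addition to liver (-2.13 ± 0.15).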

How the data were processed

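RNA-seq libraries of whole liver, 6 air and 6 ozone, were grouped by their labels. The deposited liver values are a signal: whole read counts that the authors divided by a size factor per library, which the values show, and the processing notes of the submitters name Partek, DESeq2 and the rn6 build. The aligner, counting method, strand setting and annotation were not given in the sources used here. Of 19465 entries, 24 carried a date in place of a gene symbol and were left out. Dividing by the value of 1 read gave whole reads for 100% of values (tolerance 0.01).

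Values were tested as log2(value + 1) in limma 3.58.1 (R 4.3.3, trend and robust options) over the 12573 genes with a mean of at least 10, two-sided, with Benjamini-Hochberg adjustment over all of them. Liver against lung was a linear contrast over 12112 genes. Alternatives used pseudocounts of 0.5 and 10, a mean of at least 50, no filter, values rescaled to the same total, array weights, edgeR 4.0.16 and DESeq2 1.42.0 on recovered reads, leaving out each library, and, for liver against lung, the library number as a block. The code was tested on simulated data. Replicate libraries differed by more than sampling noise in all 30 pairs (lowest chi-square per degree of freedom 14.9).

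Members and lists were chosen with earlier results of these data known. Named genes are the 15 largest increases and decreases with a mean of at least 50, up to 8 called members of each list by adjusted p, set anchor genes, and the 8 largest liver minus lung differences of each sign; others are said to be chosen after their values were seen. Some genes that the rule names are not reported here. Promoters are from RefSeq (GRCr8), and 8422 genes had 1 promoter under their symbol.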

Additional observations from a re-analysis of the deposited data

Results flagged for a closer look

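Of 148 groups of 6 libraries behind the values shown, 10 held a library whose gap to its neighbour was large for the group's range. About 1 in 20 would do so by chance if values were normally distributed, which was not tested. The values were not log-transformed here, and each flagged library was the highest of its group. In air, air 9 was high for Slc12a3 at 9.14 normalised read counts and for Fkbp5 at 605. Air 1 was high for Cdkn1a at 427 and for Otc at 25610, air 6 for Zbtb16 at 769, and air 7 for Rbm3 at 407 and Gdf15 at 172. In ozone, ozone 16 was high for Fkbp5 at 2907 and ozone 13 for Cyp7a1 at 7208, and ozone 19 had 16634 genes above 0, the most of its group. The Gdf15 call ended without air 7 and the Cyp7a1 call without ozone 13, among other libraries. Zbtb16, not past the threshold with all 12 libraries, passed without air 6 (2.33, adjusted p = 0.00315 by limma) or without air 9 (2.06, adjusted p = 0.0422). The calls of Slc12a3, Cdkn1a, Fkbp5 and Rbm3 held without any 1 library.

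The ozone change differed between liver and lung, by the test of the difference itself, for 16 genes named by the size of the difference. Liver minus lung was -5.23 for Osgin1, -4.57 for Cish, -4.56 for Socs2, -3.77 for LOC100910526, -3.59 for Arrdc3, -3.53 for Mt2A, -3.13 for Dusp6 and -2.98 for LOC500300. It was 2.99 for Plin5, 3.01 for Ppargc1a, 3.03 for Zfp354a, 3.06 for Noct, 3.12 for Tor3a, 3.89 for Ppargc1b, 4.24 for Spsb4 and 5.31 for Slc12a3.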

How the results depend on the processing

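No paired analysis was possible because the air and ozone libraries of liver share no replicate numbers. Liver and lung share 10 numbers; deviations from the group means of same-numbered libraries correlated at -0.38 to 0.26 (median -0.14), and in 0 of 10 pairs was the liver library closest to its own number in lung. With the number as a replicate block, a setting chosen after seeing the data, 674 genes differed, 335 higher and 339 lower in liver, all among the 830. With array weights 2302 genes passed in liver, 1303 up and 999 down, and 1636 differed between liver and lung, 786 higher and 850 lower in liver. Both counts moved by over 1.5 times, and the cause was not tested. Leaving out 1 library gave 1064 (without ozone 14) to 1723 (without air 1) genes in liver, and 1753 passed without air 1 and ozone 18 together, also chosen after seeing the data; the calls of Bhlhe40 and Slc25a30 then ended (adjusted p 0.0536 and 0.0566). edgeR called 804 up and 619 down and DESeq2 1024 up and 838 down, of which 1373 and 1437 were among the 1440. No gene called here was called in the opposite direction under any setting run. Rescaling to the same total moved the median of all genes to -0.05 and the share of increases among the calls from 58.8% to 51.8%. None of the 5 library measures passed the threshold with any 1 library left out (lowest adjusted p 0.119, exact permutation test). With 6 libraries a group and a median standard error of 0.20, smaller differences can go undetected.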

Other observations

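Lists that stayed near the share of all genes included iron and hepcidin genes, of which 1 of 27 rose, the transferrin receptor Tfrc (0.85 ± 0.20), and 2 fell. Among 23 apolipoprotein and lipoprotein genes 2 fell, Apoa5 (-0.57 ± 0.13) and Angptl8 (-1.40 ± 0.41). The Angptl8 call ended without air 2, 7, 9 or 10 or ozone 13, 14, 16 or 19 (adjusted p 0.0707 to 0.0957) and with no filter on low values (0.0518).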
